A study of Mus musculus with 8 samples.

Results

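Transcript levels of 10 Bcl2 family genes were followed in skin epithelium that had lost the histone acetyltransferase MOF or its partner Kansl1. The genes were the pro-survival members Bcl2, Bcl2l1, Bcl2l2 and Mcl1, the effector Bak1, and the BH3-only members Bid, Bad, Bik, Bmf and Bcl2l11. They were a chosen set of family members, taken by symbol and grouped apart from the direct p53 targets Bax, Bbc3 and Pmaip1. The set is not the whole remainder of the family, and others such as Bok were read only in a wider list. All 10 were found among the 23432 gene symbols of the count files. In E16.5 epithelium without MOF, Bcl2, Bcl2l2 and Bak1 fell 2.52- to 2.61-fold and Bid rose 2.55-fold, while Mcl1, by far the most abundant member, was within 1.07-fold of control. In P0.5 epidermis without Kansl1, no member passed the test, and neither did any other of the 13031 genes tested. An alternative test, DESeq2, also called 0 members but called 66 genes lower and 35 higher, so the empty result depends on the test.

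Bcl2 family proteins decide whether the outer mitochondrial membrane is breached during apoptosis. The effectors Bak1 and Bax form the pores, the pro-survival members hold the effectors and their activators in check, and the BH3-only members, which are switched on by upstream stress, bind the pro-survival members or activate the effectors directly. Once the membrane is open, cytochrome c joins Apaf1 in the apoptosome and caspases are activated. In epidermis this machinery operates beside cornification, the separate programme by which keratinocytes become dead barrier cells.

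The 8 libraries formed 4 groups of 2. The E16.5 MOF cKO embryos (MOFfl/fl/K14Cre, with the gene for MOF named Kat8 in the files) and their controls supplied epithelial cells sorted from back skin for the K14-H2BGFP reporter, with dead cells that took up DAPI gated out. The P0.5 Kansl1 cKO pups (Kansl1fl/fl/K14Cre, which deletes the third exon) and their controls supplied an epidermal sheet lifted with Dispase and lysed without sorting. In both lines Krt14-Cre confined the deletion to epithelial cells expressing keratin 14, the animals were of mixed C57BL/6J and CD-1 background and of either sex, and controls were wildtype or heterozygous littermates whose Cre status is not given in the sources used here. MOF lays down acetylation of histone H4 at lysine 16, and Kansl1 is a subunit of the NSL complex, one of the assemblies in which MOF works, so the design sets loss of the enzyme beside loss of one of its complexes.

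Between 9108709 and 27561688 reads per library were counted on genes. Counts were scaled to CPM, the reads of a gene per 1000000 reads on genes, with trimmed-mean (TMM) factors within each experiment, and genes with a fold change over 1.5 and an adjusted p of at most 0.01 in edgeR's quasi-likelihood test are named as called. Neither targeted gene was called, so they gave no firm check of the labels at gene level. The counts of Kat8 were 443 and 408 in the E16.5 controls against 248 and 329 without MOF. Scaled, Kat8 was at 14.4 and 14.7 CPM against 12.4 and 13.9 CPM, and its log2 fold change was -0.14 (SE 0.18, adjusted p = 0.554). The counts of Kansl1 were 355 and 745 in P0.5 control and 649 and 387 in Kansl1 cKO, from libraries of unlike depth. Scaled, Kansl1 was at 40.7 and 48.2 CPM in control and at 31.4 and 30.6 CPM in Kansl1 cKO. It was lower without overlap, as were 22.7% of all genes tested there. Its log2 fold change was -0.52 (SE 0.17, adjusted p = 0.242). The genotypes therefore rest here on the labels and on the checks of the study itself. The study reports deletion of the Kansl1 exon by genotyping, qPCR and RNA-seq, and weaker staining of the histone mark laid down by MOF in MOF cKO epidermis. Keratinocyte markers were high in all libraries, with the 5 basal markers summing to between 15190 and 32560 CPM on a scale common to the 8 libraries. E16.5 control replicate 1 was the 1 library of its experiment with high Xist, and P0.5 control replicate 2 the 1 library of its experiment with low Xist. All 10 members passed the filter on low counts in every comparison.

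RefSeq gave promoter windows for 9 of the 10 members, and Bik had no entry. The windows of 3 of the 4 members that changed without MOF are printed here as the regulatory sequence next to genes that moved, as a description and not as a map of binding. Each shows the bases before the start site and before any annotated exon, 5′ to 3′ on the gene's strand in GRCm38.p6 (the mm10 build), with matches to the GC box GGGCGG in capitals, on either strand. Bcl2 is shown at chr1:106714291-106714540 on the minus strand, Bcl2l2 at chr14:54883175-54883376 on the plus strand, and Bid at chr6:120916854-120917074 on the minus strand. The Bak1 window lies within an annotated Bak1 exon stretch and is not printed.
Bcl2: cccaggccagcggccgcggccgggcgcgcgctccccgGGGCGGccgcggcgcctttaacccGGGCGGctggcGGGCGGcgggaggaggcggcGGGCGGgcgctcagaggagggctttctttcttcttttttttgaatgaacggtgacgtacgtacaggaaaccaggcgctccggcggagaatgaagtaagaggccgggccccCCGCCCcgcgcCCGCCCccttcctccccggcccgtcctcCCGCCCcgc
Bcl2l2: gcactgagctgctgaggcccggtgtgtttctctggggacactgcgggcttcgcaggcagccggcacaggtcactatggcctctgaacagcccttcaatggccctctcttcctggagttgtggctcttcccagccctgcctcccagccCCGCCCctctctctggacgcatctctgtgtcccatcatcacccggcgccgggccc
Bid: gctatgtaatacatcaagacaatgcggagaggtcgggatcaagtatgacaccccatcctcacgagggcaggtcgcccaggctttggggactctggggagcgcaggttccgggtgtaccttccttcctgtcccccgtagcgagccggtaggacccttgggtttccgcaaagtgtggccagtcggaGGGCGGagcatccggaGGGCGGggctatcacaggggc

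The Bcl2 window was among the richest in CpG of all mouse promoters, with 36 CpG in 250 bases, the 97.4th percentile of 32841 windows whose median was 6. It held 7 GC boxes, against 2 in the printed stretch of Bid and 1 in that of Bcl2l2, and 32.7% of all windows held at least 1. The letters of the GC box were thus present beside 2 genes that fell and beside the 1 that rose, and were not found in the window of Bak1, which fell. The other motifs searched on both strands were CCAAT (in 33.9% of all windows), TATAAA (12.4%), the RFX half-site GTTGCC (10.4%) and the E box CACGTG (6.02%). None of these 4 was in the windows of Bcl2, Bcl2l2, Bak1 or Bid. The RFX half-site was found once among the members, at the first start of Bad, where it overlaps a GC box.

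In E16.5 epithelium, 4 of the 10 members were called after loss of MOF, 3 lower and 1 higher. Across the 13956 genes tested, 19.6% were called, 9.59% lower and 10% higher. The median log2 fold change was -0.46 over the members and -0.02 over all genes tested, and the median size of the change, whatever its sign, was 0.98 against 0.51. In all 10 members the MOF cKO libraries lay outside the range of the controls, 7 below and 3 above. Such separation was seen in 72.6% of all genes tested, 37.7% below and 34.9% above, so with 2 libraries a group it says little about the family. A lower level in these bulk libraries could mean fewer cells of a type or less RNA per cell, and these cannot be told apart.

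**Figure D1:**
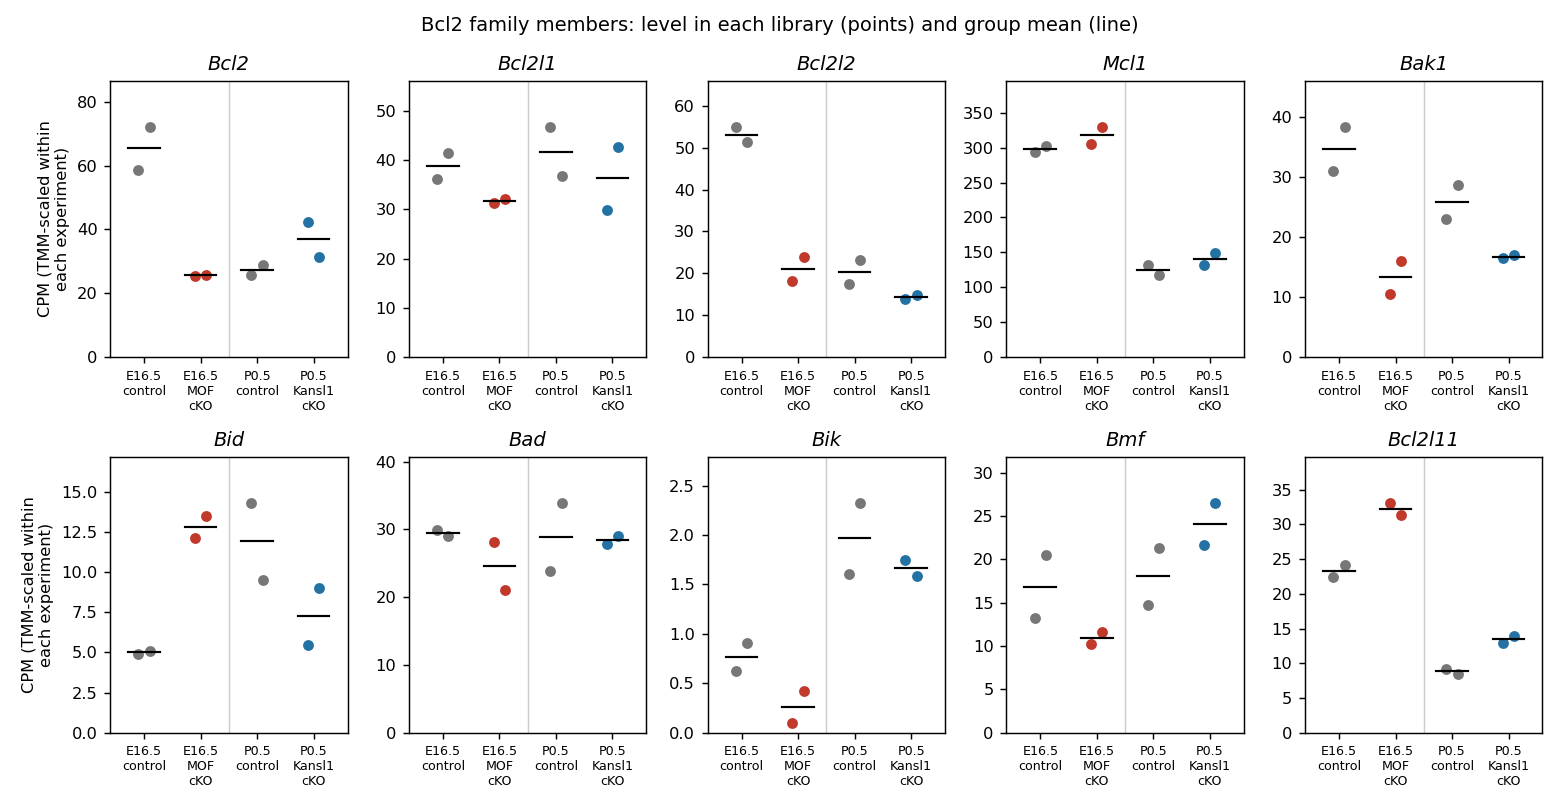
Level of each of the 10 members in every library, in CPM on linear axes that start at 0, with each experiment scaled on its own (points, libraries; black lines, group means; grey, control; red, MOF cKO; blue, Kansl1 cKO). Bcl2, Bcl2l2 and Bak1 sit well below their controls in both MOF cKO libraries and Bid sits above, while Mcl1 lies between 294 and 329.5 CPM in all 4 E16.5 libraries.

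Among the pro-survival members, Bcl2, the founding member of the family, was at 58.8 and 72.1 CPM in control (65.4 ± 9.45, SD, n = 2) and at 25.6 and 25.6 CPM in MOF cKO (25.6 ± 0.0191, n = 2). Both MOF cKO libraries were thus at less than the lower control. The log2 fold change was -1.36 (SE 0.14, adjusted p = 0.000773, edgeR's quasi-likelihood test). Bcl2l2, which encodes Bcl-w and sits at chromosome 14, 54883377 to 54888234 (mm10), was at 55.0 and 51.3 CPM in control and at 18.3 and 23.8 CPM in MOF cKO. The groups did not overlap, and the log2 fold change was -1.34 (SE 0.16, adjusted p = 0.00114).

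The other pro-survival members were not called. Mcl1, whose short-lived protein sequesters Bak1 and Bim, was at 294 and 302 CPM in control and at 305 and 329.5 CPM in MOF cKO. The MOF cKO libraries were slightly above both controls, and the log2 fold change was 0.09 (SE 0.10, adjusted p = 0.506). With scaling by library size alone it was -0.21, so its sign depends on the scaling. Bcl2l1, which encodes Bcl-xL, was at 36.1 and 41.4 CPM in control and at 31.2 and 32.1 CPM in MOF cKO, and its log2 fold change was -0.29 (SE 0.14, adjusted p = 0.126).

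The effector Bak1, at chromosome 17, 27019810 to 27029009, was at 30.9 and 38.3 CPM in control and at 10.4 and 16.0 CPM in MOF cKO. Its log2 fold change of -1.38 (SE 0.23, adjusted p = 0.00369) was the largest among the called members. The exons of Bak1 overlap those of 2 annotated entries named Ggnbp1 on the opposite strand, by 437 and 177 bases. The library kit keeps strand but the strand setting of the read counting is not given in the sources used here, so reads of overlapping genes may be shared. Exons of Bcl2 and Bcl2l2 likewise overlap those of D630008O14Rik (558 bases, opposite strand) and Gm20521 (594 bases, same strand). Neither is among the gene symbols of the count files under these names. The counts of Ggnbp1 were 77 and 145 in the controls against 16 and 35 without MOF, far fewer than the 949 and 1060 and the 208 and 378 of Bak1.

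Bid, the BH3-only protein that caspase 8 cleaves to carry the death receptor signal to mitochondria, went the other way. It was at 4.92 and 5.09 CPM in control and at 12.1 and 13.5 CPM in MOF cKO, with 151 and 141 counts against 241 and 318. Both MOF cKO libraries were above both controls, and the log2 fold change was 1.35 (SE 0.23, adjusted p = 0.00403). With scaling by library size alone, under which the median of all genes was -0.32 on the log2 scale, it was 1.05 and just missed the threshold (adjusted p = 0.0103). Bid shares 628 bases of exon with Bcl2l13 on the opposite strand, a gene with a log2 fold change of -0.43 (SE 0.11, adjusted p = 0.0203).

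The remaining BH3-only members were not called. Bcl2l11, which encodes Bim, an activator that binds every pro-survival member, was at 22.4 and 24.2 CPM in control and at 33.1 and 31.3 CPM in MOF cKO. Its log2 fold change was 0.47 (SE 0.14, adjusted p = 0.0326). Bmf, held on the actin and myosin V skeleton until cells detach, was at 13.2 and 20.5 CPM in control and at 10.2 and 11.6 CPM in MOF cKO, and its log2 fold change was -0.62 (SE 0.25, adjusted p = 0.0836). The Bmf controls were far apart, and the gap between the groups was smaller than the gap within the controls.

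Bad, which growth factor signals keep phosphorylated and bound to 14-3-3 proteins, was at 29.9 and 29.0 CPM in control and at 28.2 and 21.1 CPM in MOF cKO, and its log2 fold change was -0.26 (SE 0.17, adjusted p = 0.269). The exons of Bad and Gpr137 overlap by 524 bases on opposite strands, and Gpr137 had a log2 fold change of -0.09 (SE 0.15, adjusted p = 0.669). Bik, an endoplasmic reticulum BH3-only protein, was covered by 19 and 25 reads in control and 2 and 10 in MOF cKO. At that depth its log2 fold change of -1.49 had an SE of 0.92 (adjusted p = 0.235), and a change of the size seen in Bcl2 was not detectable.

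**Figure D2:**
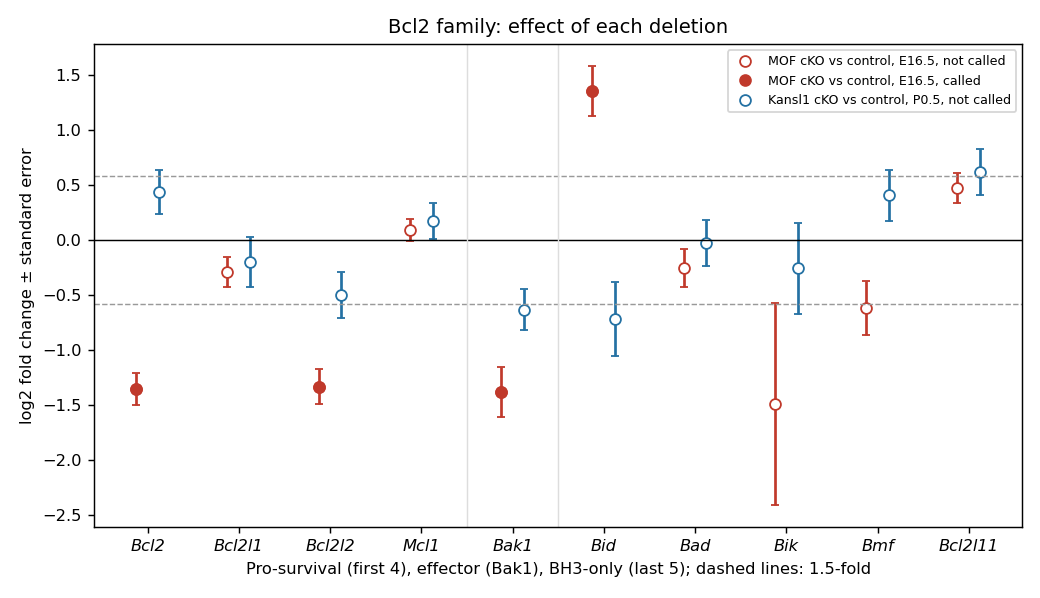
Log2 fold change of each member with its standard error for MOF cKO against control at E16.5 (red) and Kansl1 cKO against control at P0.5 (blue), with filled points for called members and dashed lines at 1.5-fold (log2 of 0.585). Red points at -1.36, -1.34 and -1.38 (Bcl2, Bcl2l2, Bak1) and at 1.35 (Bid) are filled, and none of the blue points is.

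In P0.5 epidermis, loss of Kansl1 left no member past the test. Of the 13031 genes tested, 0% were called with edgeR's quasi-likelihood test. At an unadjusted p under 0.05 the test found 3 members (Bcl2l2, Bak1 and Bcl2l11), against 15.7% of all genes. In edgeR's test the smallest adjusted p was 0.229 among the members and 0.110 among all genes. DESeq2 called 0 members at the same thresholds, and over all genes 66 lower and 35 higher. Kansl1 itself was not called by edgeR's test, so the absence of a call does not show the absence of a change. The 2 groups did not overlap in 6 members, 3 lower and 3 higher in Kansl1 cKO, against 48.7% of all genes tested (22.7% lower and 26% higher).

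Bcl2 was at 25.8 and 28.7 CPM in P0.5 control and at 42.5 and 31.2 CPM in Kansl1 cKO. Both Kansl1 cKO libraries were above both controls but well apart from each other, and the log2 fold change was 0.44 (SE 0.20, adjusted p = 0.357). Bak1 was at 22.9 and 28.6 CPM in control and at 16.4 and 16.9 CPM in Kansl1 cKO, and its log2 fold change was -0.63 (SE 0.19, adjusted p = 0.229). Bcl2l2 was at 17.4 and 23.1 CPM in control and at 13.9 and 14.9 CPM in Kansl1 cKO, and its log2 fold change was -0.50 (SE 0.21, adjusted p = 0.317). The values of Bak1 and Bcl2l2 thus lay below their controls in both experiments, but in Kansl1 cKO neither passed the test.

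Bid was at 14.3 and 9.50 CPM in control and at 5.47 and 9.01 CPM in Kansl1 cKO, and its log2 fold change was -0.72 (SE 0.34, adjusted p = 0.358). Bcl2l11 was at 9.17 and 8.47 CPM in control and at 13.0 and 13.99 CPM in Kansl1 cKO, and its log2 fold change was 0.61 (SE 0.21, adjusted p = 0.255). Bid was lower and Bcl2l11 higher without overlap, and neither passed the test. Bmf had a log2 fold change of 0.40 (SE 0.23) and Mcl1 of 0.17 (SE 0.16), and those of Bcl2l1, Bik and Bad were -0.20 (SE 0.23), -0.26 (SE 0.42) and -0.03 (SE 0.21). The 4 members from Mcl1 to Bad had overlapping groups, and Bmf did not.

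Whether the 2 deletions differed in their effect was tested on the difference itself, in one fit over the 8 libraries. Stage, isolation and deleted gene differ together between the experiments and cannot be told apart. The log2 fold change of Bcl2 in MOF cKO minus that in Kansl1 cKO was -1.82 (SE 0.26, adjusted p = 0.00520), which called 1 of the 10 members against 2.92% of 14565 genes (1.17% lower and 1.76% higher). Bcl2 thus fell without MOF and had a higher value without Kansl1. That call was lost when any 1 of 6 of the 8 libraries was left out (adjusted p of 0.0116 to 0.0254), and kept when P0.5 control replicate 2 or Kansl1 cKO replicate 2 was. With the replicate number as a block it was also lost (-1.80, adjusted p = 0.0305). Bid had the largest difference, 2.04 (SE 0.42, adjusted p = 0.0165), and was called by DESeq2 (2.14, adjusted p = 0.000331) but not by edgeR's quasi-likelihood test. Bmf (-1.06, SE 0.38, adjusted p = 0.0912), Bcl2l2 (-0.86, SE 0.28, adjusted p = 0.0669), Bak1 (-0.78, SE 0.33, adjusted p = 0.142) and Bik (-1.26, SE 0.96, adjusted p = 0.408) did not pass, and the other 4 differed by -0.26 to -0.11.

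The 2 control groups were set side by side to show the family without either deletion. They are the same libraries that served as controls above, and stage, isolation (sorted cells or a whole sheet) and experiment cannot be told apart between them. Of the members, 5 were called, 4 lower and 1 higher at P0.5, against 39.7% of 13859 genes tested (17.6% lower and 22.2% higher). The groups did not overlap in 8 members, 4 lower and 4 higher, against 80.9% of all genes (40.9% lower and 40% higher). The pro-survival members Mcl1 (-0.92, SE 0.15, adjusted p = 0.00125), Bcl2l2 (-1.05, SE 0.19, adjusted p = 0.00189) and Bcl2 (-0.93, SE 0.17, adjusted p = 0.00232) were lower on the log2 scale, as was Bcl2l11 (-1.07, SE 0.21, adjusted p = 0.00320). Bid was higher (1.57, SE 0.30, adjusted p = 0.00263). Bcl2 and Bcl2l11 were no longer called without E16.5 control replicate 2 (adjusted p = 0.0151 and 0.0164), nor was Bid without P0.5 control replicate 1 (adjusted p = 0.0110) or with scaling by library size alone (1.10, adjusted p = 0.0131).

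The remaining 5 members were not called between the controls. Bik had a log2 difference of 1.72 (SE 0.55, adjusted p = 0.0271), Bmf of 0.44 (SE 0.28), Bcl2l1 of 0.44 (SE 0.18), Bad of 0.31 (SE 0.20) and Bak1 of -0.09 (SE 0.19). With scaling by library size alone, which moved the median of all genes to -0.47, Bcl2l1, Bad and Bmf were at -0.03, -0.13 and -0.0025. The suprabasal keratinocyte markers summed to 2887 to 3545 CPM in E16.5 control and to 42930 to 77900 CPM in P0.5 control, and all 5 were called higher. The part of that shift in the family values was not tested.

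Levels can be compared between genes only per length, and were taken as CPM per kilobase of merged exon on 1 scale for the 8 libraries. Mcl1 was the highest member in all 4 groups, at 80.4 ± 1.90 in E16.5 control, 85.7 ± 4.55 in MOF cKO, 39.2 ± 3.06 in P0.5 control and 45.1 ± 3.64 in Kansl1 cKO (SD, n = 2). It lay between percentiles 92.2 and 97.3 of 13723 genes. With merged exons as length, no other member reached 15 per kilobase in any library. The order of the members below Mcl1 depends on the length taken. Bad has 2558 bases of merged exon and 1533 in its longest transcript, and Bcl2l1 has 4586 and 2568. For Bak1 the 2 lengths are close, at 2407 and 2387.

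In E16.5 control, Mcl1 was followed by Bak1 at 13.3 ± 2.05 CPM per kilobase, Bcl2l2 at 11.0 ± 0.474 and Bad at 10.6 ± 0.180. Bcl2l1 at 7.80 ± 0.798 and Bcl2 at 6.59 ± 0.984 came next, and Bmf, Bcl2l11, Bid and Bik lay between 2.96 and 0.441. The values of Bcl2l2 and Bad overlapped between libraries, as did those of Bcl2l1 and Bcl2 and those of Bmf and Bcl2l11. In MOF cKO the order below Mcl1 was Bad, Bcl2l1, Bak1, Bcl2l2, Bcl2l11, Bid, Bcl2, Bmf and Bik, where Bak1 overlapped Bcl2l2 and Bcl2l2 overlapped Bcl2l11. Bcl2 at 2.58 CPM per kilobase stood below Bid at 3.32 ± 0.249 there, in both libraries, and above it in both controls, where Bid was at 1.30 ± 0.0368.

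At P0.5 control, Bad at 12.1 ± 3.06, Bak1 at 11.5 ± 1.86 and Bcl2l1 at 9.75 ± 1.61 CPM per kilobase followed Mcl1 and overlapped one another. Bcl2l2, Bmf, Bid and Bcl2, from 4.87 to 3.19, formed a second run of overlapping neighbours, and Bik and Bcl2l11 were lowest and overlapped, at 1.33 ± 0.352 and 1.18 ± 0.0596. In Kansl1 cKO the order was Bad at 12.2 ± 0.314, Bcl2l1, Bak1, Bmf, Bcl2, Bcl2l2, Bid, Bcl2l11 and Bik at 1.145 ± 0.0850. Neighbours overlapped there for Bcl2l1 with Bak1, Bmf with Bcl2, and Bid with Bcl2l11.

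**Figure D3:**
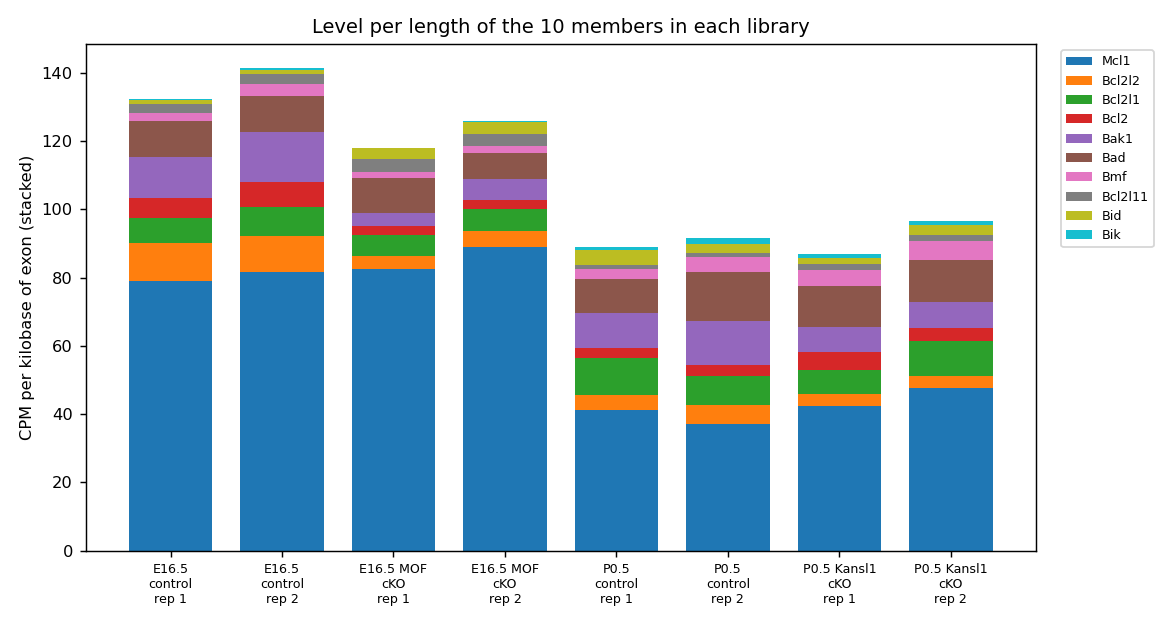
Level of the 10 members in each of the 8 libraries in CPM per kilobase of merged exon, stacked on a linear axis from 0 (1 bar per library, 1 colour per gene). Mcl1 makes up 57.8 to 59.6% of the bar in E16.5 control and 69.8 to 70.6% in MOF cKO, and the P0.5 bars are shorter, at 86.9 to 96.5 against 118 to 141.

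Summed per kilobase, the 10 members stood at 137 ± 6.30 CPM in E16.5 control and 122 ± 5.58 in MOF cKO. The sum leaves out the p53 targets Bax, Bbc3 and Pmaip1, which were called higher without MOF. The shares below are therefore shares of these 10 members and not of the whole family. Mcl1 made up 58.7 ± 1.31% of that sum in control and 70.2 ± 0.517% in MOF cKO. The pro-survival share was 77.2 ± 1.21% in control and 81.1 ± 0.773% in MOF cKO, so it was higher in MOF cKO although Bcl2 and Bcl2l2 fell. Without Mcl1 the order turned, with a pro-survival share of 44.8 ± 1.18% in control and 36.5 ± 1.49% in MOF cKO. The share of Bak1 was 9.66 ± 1.05% in control and 4.13 ± 1.04% in MOF cKO, and that of Bid 0.950 ± 0.0168% and 2.72 ± 0.0798%. None of these shares overlapped between the 2 groups, and no test was made of them.

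At P0.5 the sum was 90.4 ± 1.75 in control and 91.7 ± 6.83 in Kansl1 cKO. Mcl1 made up 43.4 ± 4.23% in control and 49.1 ± 0.313% in Kansl1 cKO, and the pro-survival share was 63.1 ± 5.01% and 67.2 ± 0.367%. Without Mcl1 the pro-survival shares overlapped, at 34.97 ± 3.99% and 35.6 ± 0.325%. The share of Bak1 was 12.7 ± 1.82% in control and 8.29 ± 0.484% in Kansl1 cKO, without overlap.

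The 10 members were next read beside 67 other genes of the apoptosis pathway, in lists chosen with earlier results of these data known. In the MOF comparison 57 of them were tested, 14 were called higher (24.6%, against 10% of all genes) and 2 lower (3.51%, against 9.59%). The median log2 fold change was 0.27 over these genes. The count called lower depended on single libraries, with 4 without E16.5 control replicate 1 or MOF cKO replicate 2 and 1 without E16.5 control replicate 2 or MOF cKO replicate 1. It also moved with the fit, to 10 with scaling by library size alone, to 6 with the replicate block, with every gene with at least 1 count or at an adjusted p of 0.05, and to 4 with DESeq2, so nothing is read from the small number called lower. In the Kansl1 comparison 0 of 59 were called, and between the controls 10 of 60 were called higher and 10 lower.

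The 3 family members listed here as direct p53 targets all rose without MOF. Bax, the partner effector of Bak1, was at 45.1 and 53.4 CPM in control and at 119 and 119 CPM in MOF cKO, and its log2 fold change was 1.27 (SE 0.13, adjusted p = 0.000666). The BH3-only genes Bbc3, which encodes Puma, and Pmaip1, which encodes Noxa, had log2 fold changes of 1.47 (SE 0.25, adjusted p = 0.00393) and 1.56 (SE 0.12, adjusted p = 0.000401). Bak1 and Bax thus changed in opposite directions, Bak1 down and Bax up. Of the 5 tested genes of the wider family, 2 were called higher. Bok, in that list, was not called (0.0096, SE 0.13, adjusted p = 0.961). Bcl2l15, a distant relative of the other members, had a log2 fold change of 2.28 (SE 0.34, adjusted p = 0.00232). Bcl2a1b, a pro-survival gene of blood cells, was covered by 0 and 0 reads in control and 43 and 29 in MOF cKO, at least 32.9-fold higher against a floor of 3 counts over the control group. It has near-identical copies between which the counting may have split reads.

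Downstream of the membrane, 2 of 6 apoptosome and released factors were called higher, Apaf1 (1.03, SE 0.14, adjusted p = 0.00185) and cytochrome c, Cycs (0.997, SE 0.10, adjusted p = 0.000711). Of 9 caspases tested, 3 were called higher. Casp14 (1.79, SE 0.16, adjusted p = 0.000536) acts in cornification, and Casp1 (3.25, SE 0.48, adjusted p = 0.00234) and Casp4 act in inflammation. Casp4 was covered by 1 and 1 reads in control and 43 and 39 in MOF cKO. Casp8, named after its value was seen because it cleaves Bid, was not called (0.11, SE 0.22, adjusted p = 0.714).

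Of 10 tested death receptor pathway genes, 3 were called higher. Fas had a log2 fold change of 2.57 (SE 0.36, adjusted p = 0.00190), Tnfrsf10b, the mouse TRAIL receptor, of 2.35 (SE 0.16, adjusted p = 0.000264), and Tnfrsf1a, the main TNF receptor, of 0.69 (SE 0.14, adjusted p = 0.00743). Of 5 inhibitor of apoptosis genes, 1 was called higher, Birc3 (1.008, SE 0.16, adjusted p = 0.00330). Of 19 tested genes whose proteins bind, phosphorylate or degrade the members or drive their transcription, 0 were called higher and 2 lower, the ubiquitin ligase subunit Btrc (-1.38, SE 0.20, adjusted p = 0.00220) and the protein kinase A subunit Prkaca (-0.68, SE 0.13, adjusted p = 0.00650).

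**Figure D4:**
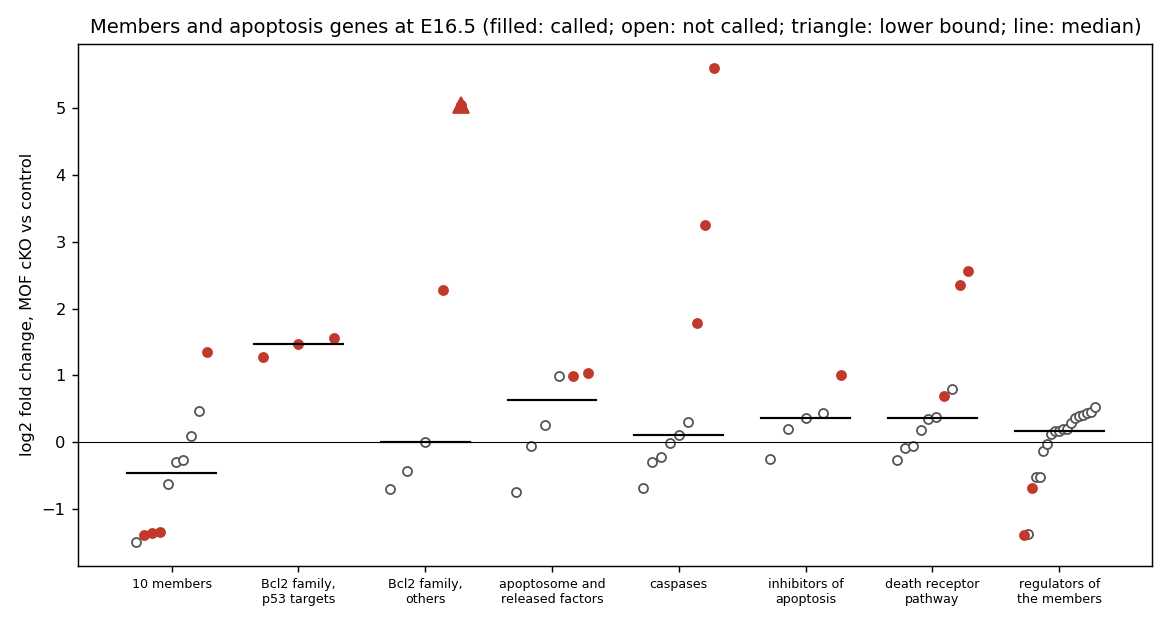
Log2 fold change of MOF cKO against control at E16.5 for the 10 members and for each list of apoptosis genes, with 1 point per tested gene (filled, called; open, not called) and a line at each median. The triangle is the lower bound for Bcl2a1b (32.9-fold), which had no counts in control, and the highest caspase, Casp4, had 2 counts in all in control. The members lie mostly below 0, with Bid their 1 filled point above it, and the p53 targets lie between 1.27 and 1.56.

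Some markers of other cells moved with genotype at E16.5. The 12 macrophage markers summed to 19.6 to 43.4 CPM in control and to 99.1 to 129 CPM in MOF cKO, all 12 were higher and 7 were called. The 5 suprabasal markers summed to 2887 to 3545 CPM in control and to 7984 to 8852 CPM in MOF cKO, with 4 of 5 called higher. The 4 endothelial markers summed to 5.63 to 6.08 CPM and 11.7 to 21.1 CPM, with 1 called. The sums of the 6 fibroblast markers overlapped, at 841 to 1433 CPM and 1418 to 1978 CPM. Of these 6, 5 had higher values, Dcn was lower (-0.30, SE 0.10) and 0 were called. The 5 melanocyte markers overlapped between groups at 13.2 to 39.3 and 15.1 to 59.2 CPM. Of 3 T cell markers, Cd3g and Cd3d were at 0 in all 4 libraries. At P0.5 the macrophage sum was 213.5 to 252.5 CPM in control and 328 to 352 CPM in Kansl1 cKO, and the melanocyte sum 483 to 531 and 1043 to 1184 CPM. The 3 T cell markers summed to 4.59 to 6.61 CPM in P0.5 control and to 12.25 to 12.26 CPM in Kansl1 cKO. The fibroblast sum was lower in Kansl1 cKO without overlap, at 1174 to 1864 and 806 to 1018 CPM, with 5 of 6 markers lower and a median log2 fold change of -1.56, and so was the endothelial sum, at 2.57 to 6.73 and 1.21 to 1.65 CPM. The suprabasal sums overlapped, at 42930 to 77900 and 45030 to 75970 CPM, and 0 markers were called in any of these P0.5 lists. That comparison called 0 of 13031 genes, so the absence of called markers says nothing about cell content. The part of these cells in the values of the members, or of Casp1, Casp4 and Bcl2a1b, was not tested.

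The genes whose pattern over the 8 libraries was most like that of the 3 called members with the largest changes were sought among 14564 genes, by the root mean square (RMS) difference of log2 CPM after centring each gene on its mean. For Bak1 they were Wdr24 (RMS 0.120, Pearson r 0.982) and Dhx34 (0.147, r 0.967). For Bcl2 they were H1fx (0.136, r 0.972) and Srgap1 (0.153, r 0.966), and for Bid they were Pmm1 (0.168, r 0.963) and Als2cl (0.211, r 0.939). The 8 points share libraries, depth and the gap between the 2 experiments, so these values describe likeness of pattern in these libraries only.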

How the data were processed

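Polyadenylated RNA was sequenced from sorted E16.5 epithelial cells and P0.5 epidermis, with 2 libraries in each of 4 groups. By the study's methods reads were aligned to mm10 with HISAT2, while the submitters' processing notes name TopHat2 and HTSeq. The authors deposited unnormalized HTSeq counts per gene. Entries naming no gene (21.1 to 26.0% of reads) were left out. Replicates of a group differed beyond sampling noise, and nothing says that they were separate litters, so p-values measure the spread between these samples.

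The members and lists were chosen with earlier results of these data known. Counts were filtered with filterByExpr, TMM-scaled and tested by quasi-likelihood in edgeR 4.0.16, with Benjamini-Hochberg adjusted p over all genes (R 4.3.3, limma 3.58.1), separately for each of 3 pairs of groups and over 8 libraries for the difference of effects. The pipeline was tested on simulated data. One count was worth 0.0300 to 0.122 CPM, and the number of libraries and counting error limit precision. Alternatives were DESeq2 1.42.0, other scalings, filters, thresholds, a replicate block, leaving out each library and, for shares per kilobase, the longest transcript. Coordinates and exon lengths came from GENCODE M21 (mm10), which matched 92.9% of 23432 symbols. All 10 members were named, with up to 3 called genes per pathway list and direction in the MOF comparison by size of change, the p53 targets Bax, Bbc3 and Pmaip1, and 2 nearest profiles for each of 3 members.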

Additional observations from a re-analysis of the deposited data

Results flagged for a closer look

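The effect on Bcl2 passed the test of a difference between the 2 deletions, but that call depended on single libraries and on the fit. The log2 fold change without MOF minus that without Kansl1 was -1.82 (SE 0.26, adjusted p = 0.00520, edgeR's quasi-likelihood test of the interaction over 8 libraries), with Bcl2 lower in 2 of 2 MOF cKO libraries and higher in 2 of 2 Kansl1 cKO libraries than in either control of the same experiment. The call was lost without any 1 of 6 of the 8 libraries (adjusted p of 0.0116 to 0.0254) and with the replicate block (-1.80, adjusted p = 0.0305), while the sign was the same in each of these fits. Bid, the member that rose without MOF, differed by 2.04 the other way and did not pass (adjusted p = 0.0165). The deleted gene, the stage and the isolation cannot be told apart here.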

How the results depend on the processing

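The 4 members called without MOF were the same under DESeq2, other size factors, every gene with at least 1 count, an adjusted p of 0.05, a fit over 8 libraries, the replicate block and each library left out. Library size alone kept 3 of them, without Bid, and gave Mcl1 at -0.21. No member was called without Kansl1 under any alternative. There Bad was at 0.0019 in the fit over 8 libraries, and with 1 library left out Bad ranged from -0.25 to 0.22, Bik from -0.48 to 0.026 and Bcl2l1 from -0.47 to 0.00070. Over all genes, the MOF comparison called 2743 lower and 769 higher with library size alone, and the Kansl1 comparison called 66 lower and 35 higher with DESeq2, 117 and 73 with every gene with at least 1 count, and 197 and 76 without Kansl1 cKO replicate 2.

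Between the controls, 3 to 5 members were called when 1 library was left out, with 3 without E16.5 control replicate 2, and Bak1 ranged from -0.25 to 0.069. Library size alone turned Bcl2l1 (-0.030), Bad (-0.13) and Bmf (-0.0025). For the difference of effects, 2 members (Bcl2 and Bid) were called with DESeq2, with every gene with at least 1 count and at an adjusted p of 0.05, and 0 to 1 with 1 library left out. With every gene with at least 1 count Bcl2l1 was at 0.0079 and Mcl1 at 0.018. With 1 library left out Bcl2l1 ranged from -0.36 to 0.13, Mcl1 from -0.20 to 0.055, Bcl2l11 from -0.24 to 0.022 and Bad from -0.56 to 0.069. The cause of these shifts was not tested.

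Replicate numbers recur in each group, but no label ties them to a litter or day, and deviations of same-numbered libraries correlated at 0.19 in the MOF and -0.11 in the Kansl1 experiment. With the replicate block, 4 members were called without MOF, 0 without Kansl1, 5 between controls and 0 for the difference of effects (Bcl2 -1.80, adjusted p = 0.0305), and over all genes the MOF comparison called 2263 lower and 1903 higher. A crossed pairing in the Kansl1 experiment, chosen after seeing the data, called 0 members. The number of other pathway genes called lower without MOF, 2 as reported, was 4 with DESeq2, 10 with library size alone, 6 with every gene with at least 1 count, the block or an adjusted p of 0.05, and 1 to 4 with 1 library left out (4 without E16.5 control replicate 1 or MOF cKO replicate 2). With the longest transcript as length, the pro-survival share was 73.8% in E16.5 control and 76.1% in MOF cKO. At P0.5 it was 59.8% in control (56.0 to 63.6%) and 63.0% in Kansl1 cKO (62.5 to 63.4%). These P0.5 groups overlapped, while with merged exons they did not. Bik, with 2 to 36 counts, is limited by depth.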
